A study of Mus musculus with 15 samples.

Results

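Plasmacytoid dendritic cells (pDC) sorted from the thymus of mice whose CD11c-expressing cells lack LKB1 (KO) were set against pDC sorted from wild-type (WT) mice. The libraries were chosen by their labels as pDC KO 1 to 3 and pDC WT 1 to 3, 6 of the 15 libraries of the study, which also profiled conventional dendritic cells of type 1 (cDC1) and type 2 (cDC2). KO mice were Itgax-cre Stk11 fl/fl: loxP sites flank part of Stk11, the gene of LKB1, and Cre is made under regulatory sequence of Itgax, the gene of CD11c. All mice were on the C57BL/6 background and of both sexes, and the labels do not say which alleles the WT mice carried beyond their genotype. Every mouse, KO and WT alike, was injected under the skin at 8 to 12 weeks of age with B16 melanoma cells that secrete Flt3L, the cytokine that drives dendritic cell numbers up, and thymi were taken 9 to 12 days later. The cells were thus pDC of a Flt3L-expanded thymus in a tumour-bearing host. They were enriched on CD11c beads and sorted as positive for Siglec-H with intermediate CD11c. Such pDC carry less CD11c than other dendritic cells, and how much of Stk11 was deleted in them was not measured here. The labels do not say whether the 3 libraries of a group came from separate mice, so p-values measure the spread between these libraries, which may be technical.

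LKB1 is a serine/threonine kinase that works in a complex with the pseudokinase STRAD and the scaffold MO25. It phosphorylates AMPK, which restrains growth and lipid synthesis when energy is short, and the AMPK-related kinases of the SIK, MARK and NUAK families. The SIK kinases keep the CRTC coactivators of CREB out of the nucleus. Plasmacytoid dendritic cells are held in their lineage by the transcription factors Tcf4, Irf8 and Spib. They sense nucleic acids through the endosomal receptors Tlr7 and Tlr9 and make type I interferon through Irf7. In the thymus they are also known as cells that bring in antigen and present it to developing T cells.

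The libraries held 5453387 to 10499062 counts each, as strand-specific 3′ tags with no molecular identifiers. Levels are in CPM, counts relative to the library total, scaled within the 6 libraries by TMM, and differences are log2 KO minus WT with the standard error of edgeR's quasi-likelihood fit. The surface lectin gene Siglech stood at 18408, 20648 and 19642 CPM in KO libraries 1 to 3, against 15171, 18799 and 26667 CPM in WT libraries 1 to 3. It was abundant in every library and the groups overlapped (−0.05 ± 0.30; edgeR, adjusted p = 0.992). Ly6d ran from 775 to 1058 CPM in KO and from 637 to 1128 CPM in WT, and Spib from 318 to 351 CPM in KO and from 250 to 348 CPM in WT. All 3 pDC markers were thus present in all 6 libraries, and Siglech encodes the protein the sort used.

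Stk11 was read at 42.6, 32.0 and 35.7 CPM in KO, against 65.1, 39.9 and 44.9 CPM in WT. KO library 1 lay above WT library 2, and the difference of −0.44 ± 0.31 did not pass the threshold (edgeR, adjusted p = 0.878). The tags come from the 3′ end of the transcript and the labels do not place the floxed part, so this level checks nothing about the deletion.

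Of 10167 genes tested, 2 passed an adjusted p under 0.05 in edgeR (0.0197%), Plcb1 and Itgam, and both were higher in KO. None was lower (0%), while 587 genes had an unadjusted p under 0.05 (5.77%; 235 higher, 2.31%, and 352 lower, 3.46%) and DESeq2 called 21 genes lower. The 3 KO and 3 WT libraries did not overlap for 1261 genes (12.4%), 649 higher in KO (6.38% of tested genes) and 612 lower (6.02%). The median difference over all tested genes was −0.0024. With bulk RNA, fewer cells that express a gene and less RNA per cell cannot be told apart.

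Plcb1 encodes phospholipase C beta 1, the enzyme that receptors coupled to Gq proteins use to split a membrane phosphoinositide into inositol trisphosphate and diacylglycerol. Its level was 45.0, 70.2 and 44.8 CPM in KO libraries, against 0, 0 and 0 CPM in WT libraries. The transcript was read in every KO library and in no WT library: KO held 1092 counts in all, WT none. Taking a floor of 3 counts over the WT group, it was at least 451-fold higher in KO (edgeR, adjusted p = 2.94e-05). The floor covers counting error only.

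Itgam encodes CD11b, the alpha chain of the integrin Mac-1, a receptor for complement and adhesion ligands on myeloid cells. It was read at 64.1, 66.3 and 61.9 CPM in KO, against 7.61, 2.91 and 4.47 CPM in WT. The KO libraries lay within a narrow band far above every WT library. The mean was 64.1 ± 2.19 CPM in KO and 4.999 ± 2.40 CPM in WT (SD, n = 3 each), a 12.8-fold difference (3.68 ± 0.40; edgeR, adjusted p = 0.00139). The predicted gene Gm49368 overlaps Itgam on the same strand, with 30 counts in KO and 2 in WT, and which of the pair a shared read came from is uncertain. Both Plcb1 and Itgam kept their calls under every alternative setting and without any 1 of the 6 libraries.

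**Figure D1:**
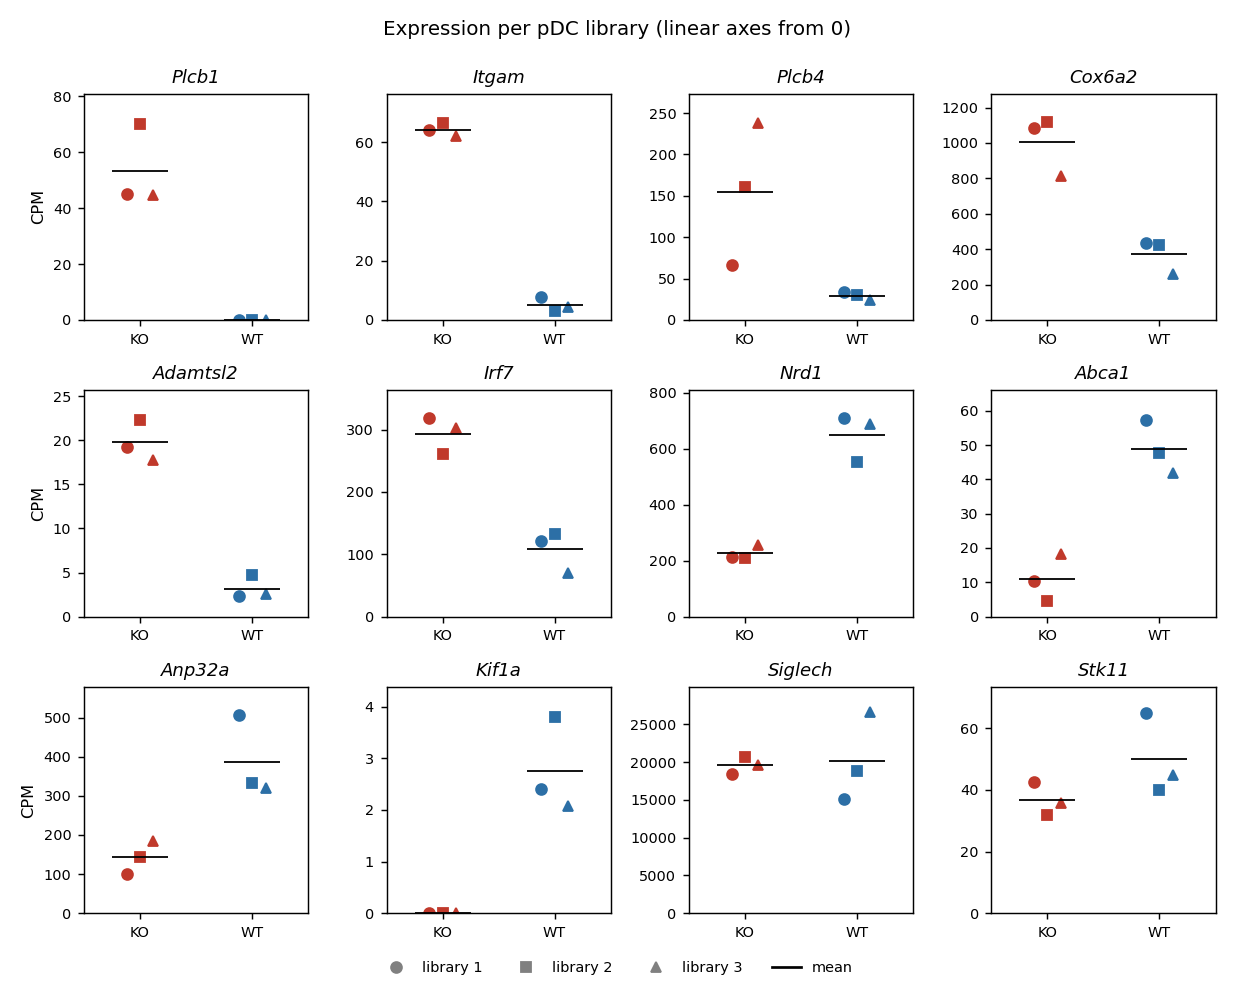
Expression of 12 genes in the 3 pDC KO (red, left) and 3 pDC WT libraries (blue, right), in CPM on linear axes from 0, with a line at each group mean. Plcb1 is at 0 in all WT libraries and Itgam lies between 61.9 and 66.3 CPM in KO, while Siglech and Stk11 overlap between the groups.

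The start regions of these genes are shown because the 2 called genes, Itgax as the neighbour whose regulatory sequence drives Cre, and Rsad2 as a type I interferon-stimulated gene could be compared by sequence. Each is the 250 bases before the start of the gene in RefSeq (GRCm38.p6), written 5′ to 3′ on the strand of the gene. Plcb1 spans chr2:134785914-134786163 (plus strand), Itgam chr7:128062390-128062639 (plus strand), Itgax chr7:128129300-128129549 (plus strand) and Rsad2 chr12:26456453-26456702 (minus strand). Capitals mark matches to GAGGAA, a core bound by ETS factors such as PU.1 and Spi-B, in Itgam, and, in Rsad2, to the interferon-stimulated response element (ISRE), searched as a GAAA repeat with any 2 bases in between.
Plcb1: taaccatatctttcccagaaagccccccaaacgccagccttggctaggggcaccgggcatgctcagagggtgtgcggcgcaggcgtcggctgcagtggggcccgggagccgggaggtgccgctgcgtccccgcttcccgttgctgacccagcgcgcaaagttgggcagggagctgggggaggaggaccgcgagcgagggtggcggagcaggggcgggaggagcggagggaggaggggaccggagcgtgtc
Itgam: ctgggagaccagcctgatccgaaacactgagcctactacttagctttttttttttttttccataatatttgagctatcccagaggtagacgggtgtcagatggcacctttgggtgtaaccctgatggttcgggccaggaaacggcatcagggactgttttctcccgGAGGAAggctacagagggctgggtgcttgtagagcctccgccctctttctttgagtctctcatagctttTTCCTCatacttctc
Itgax: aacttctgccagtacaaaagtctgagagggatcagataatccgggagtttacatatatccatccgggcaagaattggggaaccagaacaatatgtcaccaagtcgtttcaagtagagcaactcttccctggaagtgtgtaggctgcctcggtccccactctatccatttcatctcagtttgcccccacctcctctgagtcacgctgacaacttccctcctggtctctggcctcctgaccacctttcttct
Rsad2: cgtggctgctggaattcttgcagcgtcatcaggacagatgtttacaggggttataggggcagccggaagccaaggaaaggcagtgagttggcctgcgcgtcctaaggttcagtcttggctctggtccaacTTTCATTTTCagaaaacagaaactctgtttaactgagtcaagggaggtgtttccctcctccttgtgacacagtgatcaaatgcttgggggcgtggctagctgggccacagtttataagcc
On both strands 4 motifs were searched: the CREB site TGACGTCA, its shorter form TGACG, the ETS core GAGGAA and the ISRE, where a TGACGTCA match also counts as TGACG. The Itgam window held 2 matches to GAGGAA, a motif found in 23.3% of 32851 RefSeq windows of this length. The Plcb1 and Itgax windows held none of the 4 motifs. Rsad2 held 1 match to the ISRE, found in 2.98% of all windows, and 1 to TGACG (17.8%). The CREB site TGACGTCA, found in 1.55% of windows, was in none of the windows shown. A match is a run of letters and not a bound site.

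Plcb4, another Gq-coupled phospholipase C beta, had the next phospholipase difference. It was read at 66.1, 160 and 238 CPM in KO, against 33.6, 29.5 and 24.2 CPM in WT. Every KO library lay above every WT library, and the KO libraries also lay far from each other. The difference of 2.41 ± 0.41 missed the threshold in edgeR over the 6 libraries (adjusted p = 0.111) and passed it in DESeq2 (adjusted p = 1.34e-05), in edgeR over all 15 libraries (adjusted p = 0.0254) and in edgeR without KO library 1 (adjusted p = 0.00467). The fit over all 15 libraries called 8 of 11746 genes (0.0681%), of which 7 were higher (0.0596%), Plcb1, Itgam, Plcb4, Rrm2 and Pde8a among them, and Kif1a was the 1 lower (0.00851%).

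The remaining phospholipase C isoforms overlapped between the groups. Plcb2, the abundant isoform of blood cells, ran from 97.0 to 163 CPM in KO and from 133 to 168 CPM in WT (−0.37 ± 0.29). Plcb3 (−0.48 ± 0.51), Plcg1 (−0.44 ± 0.35) and Plcg2 (0.37 ± 0.28), the isoforms used by Gq and by tyrosine kinases, were as close. Upstream, the Gq family alpha subunit gene Gna11 was read at 99.2, 119 and 83.4 CPM in KO, against 49.6, 63.0 and 44.5 CPM in WT. Downstream, Dgkz, which turns diacylglycerol into phosphatidic acid, was read at 59.97, 52.5 and 57.6 CPM in KO, against 33.8, 20.4 and 20.8 CPM in WT. Both had groups that did not overlap, without passing the threshold (Gna11 0.94 ± 0.29, Dgkz 1.18 ± 0.32; edgeR, adjusted p = 0.634 and 0.528). Of 41 tested genes of phospholipase C signalling and calcium release, 1 passed higher and 0 lower, 6 had higher KO libraries without overlap and 1 lower (14.6% and 2.44%, against 6.38% and 6.02% of all tested genes), and the median difference was −0.04.

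Among 11 tested integrin genes Itgam alone passed. With Itgam counted, 2 had groups apart, both higher (18.2% higher and 0% lower, against 6.38% and 6.02% of all tested genes). The other alpha chains that pair with the same beta chain were closer between the groups. Itgax was read at 181, 183 and 195 CPM in KO, against 153, 157 and 108 CPM in WT. Each KO library was above each WT library by a small margin (0.42 ± 0.27; edgeR, adjusted p = 0.855). Itgad ran from 29.0 to 51.6 CPM in KO and from 14.8 to 58.7 CPM in WT (0.46 ± 0.47), and Itgal, the alpha chain of LFA-1, from 236 to 416 CPM in KO and from 201 to 286 CPM in WT (0.38 ± 0.30).

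Both called genes lie next to a relative. On chromosome 7 (GENCODE M21, GRCm38), Itgam spans 128062640 to 128118491 and ends 11.1 kb before Itgax, Itgad lies 3.7 kb beyond Itgax, and Cox6a2 lies 54.8 kb beyond it. Within 500 kb of Itgax, 23 of 35 genes were tested. Itgam was the one called, 15 differences were positive, and KO libraries lay apart from WT in 4 genes higher and 3 lower (6.38% and 6.02% of all tested genes), with a median of 0.20. The Itgax-cre line carries a transgene built from Itgax regulatory sequence, and its part in the levels of Plcb1, Itgam, Itgax and Cox6a2 was not tested. The labels do not say whether the WT mice carried it.

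On chromosome 2, Plcb1 spans 134786067 to 135475258 and Plcb4 begins 183.8 kb beyond its end. Of 7 tested genes within 2000 kb of Plcb1, Plcb4 was the one with a positive difference, and the median was −0.24. Flrt3, an adhesion molecule gene on the same chromosome, lies 5176 kb from Plcb1 and was read at 10.6, 12.3 and 5.47 CPM in KO, against 0, 0 and 1.74 CPM in WT. Its distance was looked up after its values were seen. Around Stk11 on chromosome 10, 41 of 62 genes within 500 kb were tested and 0 passed the threshold (edgeR), with 31 positive differences (49.7% of all tested genes were positive), 4 genes apart and higher (6.38% of all tested genes were), and a median of 0.33.

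**Figure D2:**
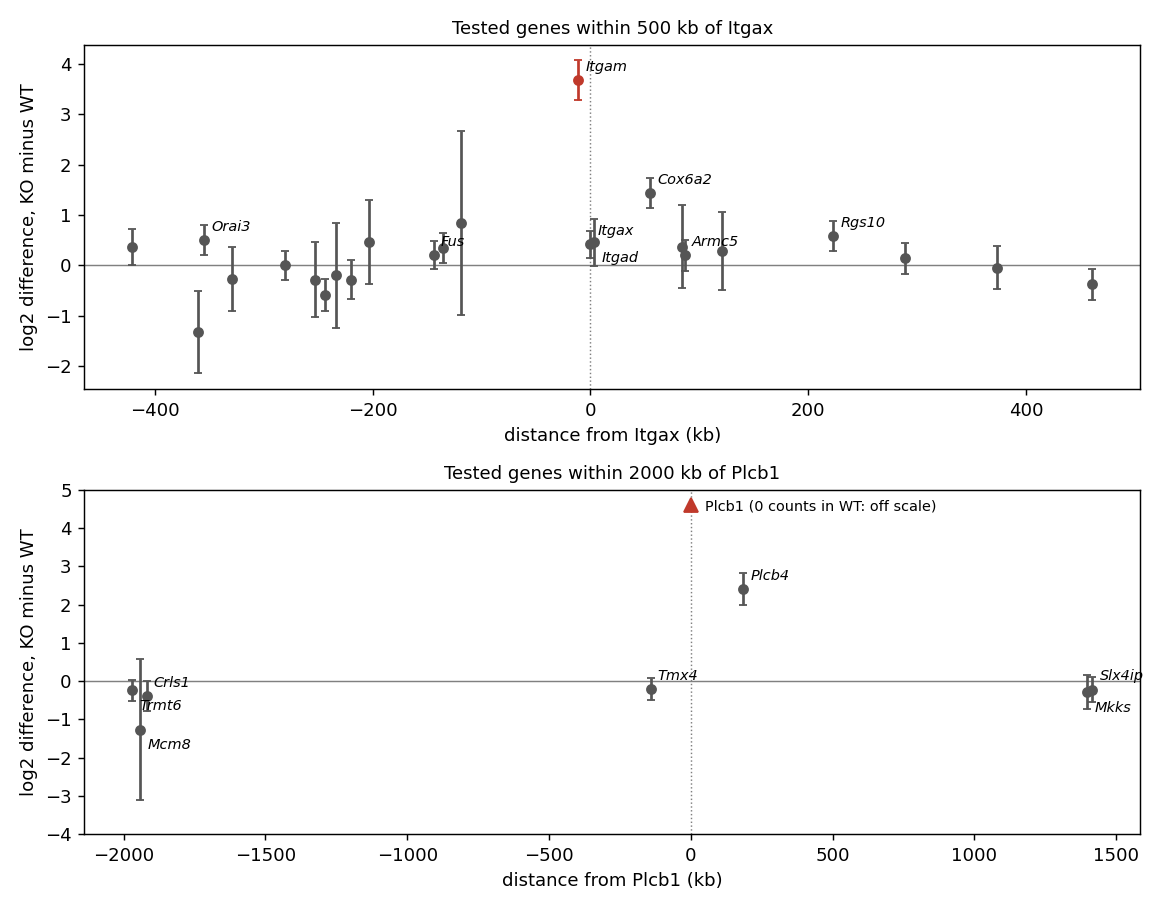
Differences (log2, pDC KO minus WT, with standard error) of tested genes against their distance from Itgax (upper) and Plcb1 (lower) in kb, with genes past the threshold in red. Itgam stands at 3.68 and Cox6a2 at 1.43, and the other tested neighbours of Itgax run from −1.33 (Fbxl19) to 0.84 (Trim72). Plcb4 at 2.41 is the tested neighbour of Plcb1 above 0.

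DESeq2 called 35 of the 10167 genes (0.344%), 14 higher (0.138%) and 21 lower (0.207%), with Plcb1 and Itgam among them. Groups did not overlap for 34 of the 35, against 12.4% of all tested genes. That follows from choosing genes by p on the same libraries and is no support for the calls. Beside Plcb1 and Itgam, 33 were called by DESeq2 and not by edgeR, 12 higher and 21 lower, and 5 of the 33 have no informative name. Of the 14 higher genes, 5 lay on chromosome 2 (Plcb1, Plcb4, Adamtsl2 and Flrt3 among them) and 3 on chromosome 7 (Itgam, Cox6a2 and Irf7). These 2 chromosomes held 15.3% of tested genes and 1 of the 21 lower genes. The chromosomes were counted after the calls had been seen.

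Among the higher genes, Cox6a2 encodes the muscle form of a cytochrome c oxidase subunit, which pDC also express. It was read at 1086, 1120 and 814 CPM in KO, against 436, 423 and 261 CPM in WT. Every KO library was above every WT library, and the difference was 1.43 ± 0.30 (DESeq2, adjusted p = 0.00221; edgeR, adjusted p = 0.270). Irf7, the master transcription factor of interferon production in pDC, stood at 318, 261 and 302 CPM in KO, against 122, 133 and 70.5 CPM in WT (1.44 ± 0.30; DESeq2, adjusted p = 0.0035; edgeR, adjusted p = 0.270).

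Adamtsl2, which encodes a secreted matrix glycoprotein, was at 19.3, 22.4 and 17.8 CPM in KO, against 2.28, 4.68 and 2.51 CPM in WT (2.64 ± 0.46; DESeq2, adjusted p = 0.000582; edgeR, adjusted p = 0.111). Adgrg5, an adhesion G protein-coupled receptor gene, was at 57.9, 61.7 and 44.5 CPM in KO, against 4.06, 8.35 and 27.3 CPM in WT, where WT library 3 stood apart from the others. It passed edgeR's threshold without that library. Tmem108 (2.41 ± 0.52), the nucleoside diphosphate kinase family gene Nme6 (4.31 ± 1.00) and the zinc finger gene Zbtb49 completed the named higher genes. Zbtb49 was read 60 times in KO and never in WT, which puts it at least 24.8-fold higher, and its 2.39 to 3.62 CPM in KO libraries are low levels.

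Among the lower genes, Nrd1 had the smallest p. It encodes nardilysin, a metalloendopeptidase, and was read at 212, 210 and 254 CPM in KO, against 710, 550 and 688 CPM in WT. Every KO library lay below every WT library, and the level was 2.88-fold lower in KO (−1.53 ± 0.27; DESeq2, adjusted p = 1.34e-05; edgeR, adjusted p = 0.111). Abca1, the transporter that loads cell cholesterol onto apolipoproteins, was at 10.4, 4.55 and 18.1 CPM in KO, against 57.4, 47.7 and 41.8 CPM in WT (−2.15 ± 0.44; DESeq2, adjusted p = 0.0035; edgeR, adjusted p = 0.270).

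Further genes were called lower by DESeq2 and not by edgeR. Anp32a, a histone-binding phosphoprotein gene, stood at 101, 143 and 185 CPM in KO, against 506, 334 and 320 CPM in WT (−1.44 ± 0.31). Cwc27, a spliceosome-associated protein gene, had a difference of −1.82 ± 0.38. Map7, whose product recruits kinesin-1 to microtubules, had a difference of −1.80 ± 0.42, and Ktn1, which encodes the kinesin-binding protein kinectin, one of −0.99 ± 0.25. Tbc1d5, a Rab regulator gene, had −1.42 ± 0.33 and Tmem156 −1.73 ± 0.39. For these genes edgeR's adjusted p ran from 0.270 to 0.521.

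Other lower genes were read in WT alone or nearly so, at low levels. Plxna2, a semaphorin receptor gene, was read 0 times in KO and 102 times in WT, which puts it at least 27.4-fold lower. Igll1, a surrogate light chain gene of the lymphoid lineage, was read 0 times in KO and 110 times in WT (at least 29.6-fold lower). Smim10l2a was read 0 times in KO and 107 times in WT (at least 28.8-fold lower), and the axonal kinesin gene Kif1a 0 times in KO and 68 times in WT (at least 18.3-fold lower). Arhgap10 was at 0.441, 0 and 0 CPM in KO, against 6.47, 5.82 and 4.91 CPM in WT. None of these passed in edgeR over the 6 libraries, with adjusted p from 0.495 to 0.582.

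The surface and effector genes of pDC had a small median difference, and more of them lay apart higher than lower in KO. Of 30 tested genes 0 passed the threshold in edgeR and DESeq2 called 0. At an unadjusted p under 0.05 there were 4 higher and 2 lower (2.31% and 3.46% of all tested genes). KO libraries lay above WT in 5 and below in 1 (16.7% and 3.33%, against 6.38% and 6.02% of all tested genes), and the median was 0.12. Ly6a, which encodes Sca-1 and responds to interferon, was read at 398, 455 and 622 CPM in KO, against 271, 295 and 203 CPM in WT (0.94 ± 0.28; edgeR, adjusted p = 0.597). Bst2, the tetherin gene whose product PDCA-1 marks mouse pDC and is interferon-inducible, was read at 259, 315 and 203 CPM in KO, against 160, 169 and 126 CPM in WT (0.77 ± 0.28; adjusted p = 0.736). Sla2, a Src-like adaptor gene, was read at 131, 133 and 120 CPM in KO, against 75.3, 70.7 and 86.4 CPM in WT (0.72 ± 0.27). Cd209d, a C-type lectin gene, went the other way, at 68.8, 61.9 and 24.8 CPM in KO, against 101, 86.1 and 151 CPM in WT (−1.12 ± 0.38; edgeR, adjusted p = 0.734).

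The core lineage transcription factors overlapped between the groups. Tcf4 ran from 8566 to 9266 CPM in KO and from 9085 to 10584 CPM in WT (−0.16 ± 0.27), and Irf8 from 5780 to 8163 CPM in KO and from 6548 to 7438 CPM in WT (−0.04 ± 0.28). Of 34 tested factors of the dendritic lineages 0 passed in edgeR and Irf7 in DESeq2, and the median was −0.04. At an unadjusted p under 0.05 there were 3 higher and 1 lower (2.31% and 3.46% of all tested genes). Beside Irf7, Cebpb, a factor of myeloid cells, was read at 96.3, 61.7 and 68.2 CPM in KO, against 30.6, 32.8 and 55.3 CPM in WT (0.93 ± 0.33; edgeR, adjusted p = 0.734). Ikzf3, which encodes the lymphoid factor Aiolos, was read at 9.99, 6.03 and 7.87 CPM in KO, against 17.6, 15.4 and 14.7 CPM in WT (edgeR, adjusted p = 0.799).

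Genes of nucleic acid sensing had a median near that of all tested genes. Tlr7 stood at 158 to 214 CPM in KO and 133 to 183 CPM in WT, and Tlr9 at 577 to 941 CPM in KO and 793 to 863 CPM in WT, with differences of 0.23 ± 0.27 and −0.06 ± 0.28. Of 31 tested genes from these receptors to interferon 0 passed in edgeR and Irf7 in DESeq2. At an unadjusted p under 0.05 there were 1 higher and 1 lower (2.31% and 3.46% of all tested genes). In this list 4 lay apart higher and 1 lower (12.9% and 3.23%, against 6.38% and 6.02% of all tested genes), and the median was −0.06. Irf5, which works beside Irf7 below these receptors, was read at 59.8, 54.5 and 44.3 CPM in KO, against 34.0, 39.5 and 28.5 CPM in WT. Irak4, the first kinase below MyD88, was read at 30.4, 40.7 and 39.3 CPM in KO, against 60.02, 68.6 and 54.1 CPM in WT. Both were apart without passing (Irf5 0.64 ± 0.30, Irak4 −0.73 ± 0.29; edgeR, adjusted p = 0.851 and 0.799).

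Type I interferon-stimulated genes had the highest median of the 36 lists examined. Of 37 tested members, 34 had positive differences (49.7% of all tested genes did), 15 had every KO library above every WT library (6.38% of all tested genes), and 0 were apart in the lower direction. The median difference was 0.66, against −0.0024 over all tested genes, and it ran from 0.52 to 0.78 with 1 library left out. No member passed the threshold in edgeR or DESeq2 on these 10167 genes, and Dhx58 passed in edgeR without a filter on low counts (adjusted p = 0.0378). At an unadjusted p under 0.05 in edgeR there were 11 higher and 0 lower (2.31% and 3.46% of all tested genes). Summed over the list, the level was 5082, 7211 and 6529 CPM in KO, against 4583, 5774 and 3885 CPM in WT, so that KO library 1 lay below WT library 2.

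The 4 members with the smallest p were a cytosolic RNA sensor regulator, 2 oligoadenylate synthetase-like genes and an antiviral enzyme. Dhx58, which encodes LGP2, was read at 20.4, 24.9 and 34.2 CPM in KO, against 10.8, 4.30 and 7.85 CPM in WT (1.79 ± 0.42; edgeR, adjusted p = 0.472). Oasl1, known in the mouse as a restraint on Irf7 translation, was read at 12.2, 19.7 and 28.2 CPM in KO, against 6.73, 8.61 and 5.56 CPM in WT (1.52 ± 0.43; adjusted p = 0.582). Rsad2, which encodes viperin, was read at 122, 133 and 128 CPM in KO, against 35.8, 60.2 and 79.5 CPM in WT (1.12 ± 0.32; adjusted p = 0.582). In these 3 genes all KO libraries were higher than all WT libraries, and for Rsad2 the KO libraries were also closer to each other. Oasl2 was read at 42.6, 48.7 and 69.4 CPM in KO, against 14.3, 39.2 and 15.4 CPM in WT, with WT library 2 just under the KO libraries (1.22 ± 0.41; edgeR, adjusted p = 0.734). The ISRE was in 15 of the 29 start regions that RefSeq gave for these genes (51.7%), against 2.98% of all windows.

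**Figure D3:**
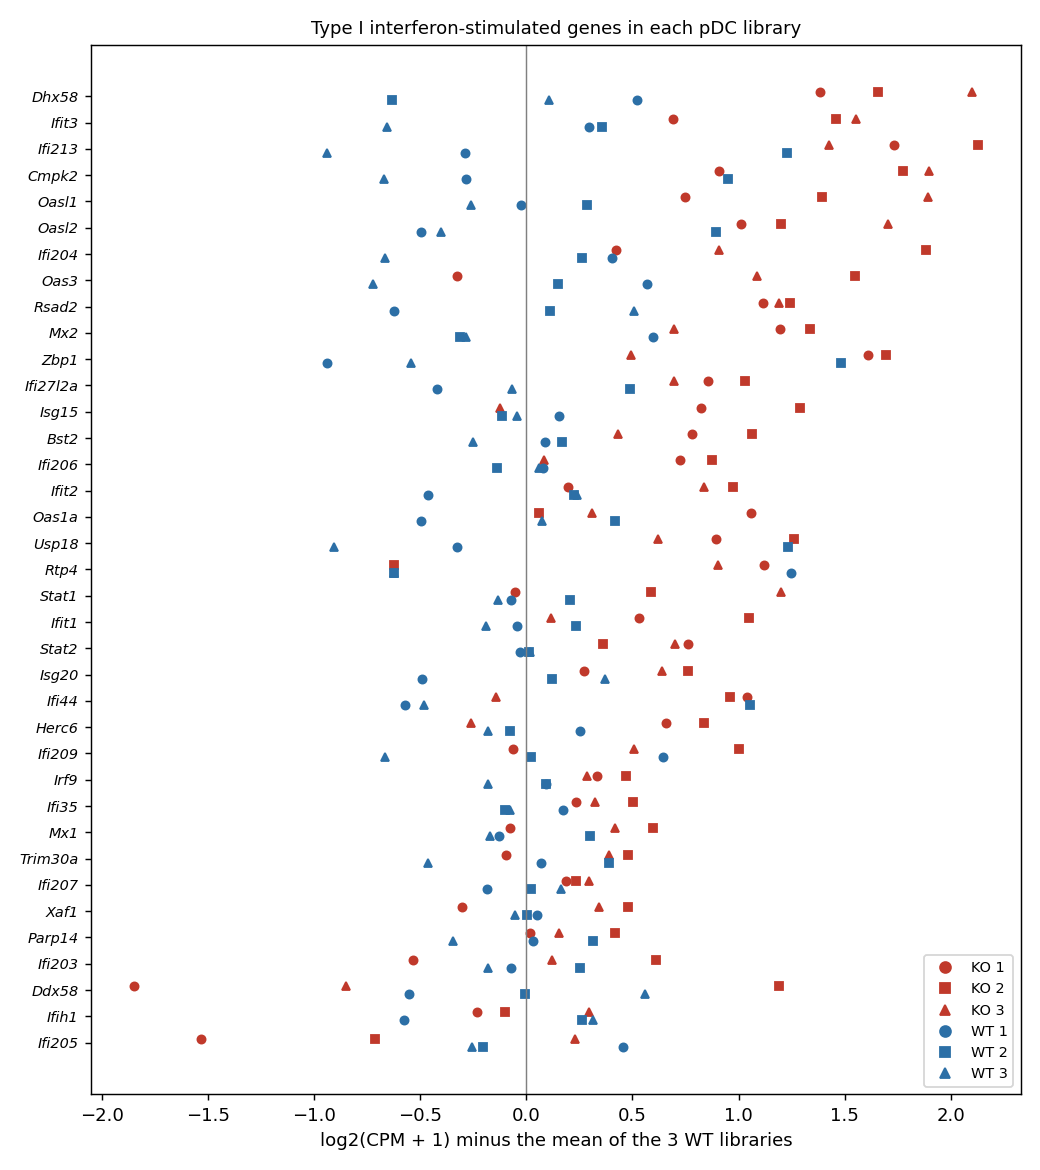
Levels of 37 tested type I interferon-stimulated genes in each pDC library, as log2(CPM + 1) minus the mean of the 3 WT libraries, with KO libraries in red and WT libraries in blue. Most red points lie to the right of 0, and WT library 2 (blue squares) often lies nearest to them.

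Antigen presentation genes had smaller positive medians. Of 23 tested genes of MHC class I and peptide loading 5 lay apart higher (21.7%) and 1 lower (4.35%), with a median of 0.35. Of 18 of MHC class II 6 lay apart higher (33.3%) and 1 lower (5.56%), with a median of 0.19, where all tested genes gave 6.38% higher and 6.02% lower. None passed in edgeR or DESeq2, and 2 and 4 of them had an unadjusted p under 0.05 higher, 0 lower (2.31% and 3.46% of all tested genes). B2m, the light chain of class I molecules, was read at 3784, 5927 and 2856 CPM in KO, against 1967, 2739 and 2720 CPM in WT (0.76 ± 0.32; edgeR, adjusted p = 0.812). H2-Oa, a modulator of class II peptide loading, was read at 58.1, 51.7 and 69.2 CPM in KO, against 32.4, 41.0 and 24.2 CPM in WT (0.88 ± 0.31; adjusted p = 0.736). Canx, which encodes the chaperone calnexin, was read at 285, 280 and 231 CPM in KO, against 395, 451 and 311 CPM in WT (−0.54 ± 0.27). With offsets for transcript length and GC content the medians were 0.20 for class I and 0.05 for class II.

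Genes of the LKB1 complex and AMPK were close between the groups. Among the substrate genes Sik1 and Sik3 leaned higher in KO and Sik2 lower, none past the threshold. Of 22 tested genes of the LKB1 complex and AMPK 0 passed in edgeR or DESeq2, and 0 had an unadjusted p under 0.05 (5.77% of all tested genes did). In this list 1 lay apart higher and 0 lower (4.55% and 0%, against 6.38% and 6.02% of all tested genes), and the median was −0.18. Of 16 tested genes for SIK, MARK and NUAK kinases and CRTC coactivators 1 lay apart higher and 0 lower (6.25% and 0%, against the same shares). Of them 6 had positive and 10 negative differences, and the median was −0.15. At an unadjusted p under 0.05 there were 2 higher and 0 lower (2.31% and 3.46% of all tested genes). Sik2, scaled over all 15 libraries, was read at 31.6, 26.8 and 42.0 CPM in KO, against 34.5, 37.4 and 111 CPM in WT, with groups that overlapped. Sik3 was read at 31.0, 23.8 and 23.8 CPM in KO, against 18.0, 15.6 and 11.7 CPM in WT (0.80 ± 0.35; edgeR, adjusted p = 0.824). Sik1, itself a CREB target, was read at 481, 390 and 187 CPM in KO, against 241, 189 and 116 CPM in WT (0.95 ± 0.37; adjusted p = 0.776), with KO library 3 at the level of WT library 2. Of 28 tested CREB targets and cAMP pathway genes 0 passed in edgeR or DESeq2 over the 6 libraries, and 2 had an unadjusted p under 0.05 higher (2.31% of all tested genes did). The median of these 28 genes was 0.22, or 0.02 without KO library 1. Of these, the cAMP phosphodiesterase gene Pde8a was read at 3.23, 3.88 and 3.76 CPM in KO, against 0.508, 0 and 0 CPM in WT, and passed in the fit over all 15 libraries (edgeR, adjusted p = 0.0342).

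In energy metabolism, 43 of 54 tested oxidative phosphorylation genes had positive differences (79.6%, against 49.7% of all tested genes). Of the 54, 11 lay apart higher and 0 lower (20.4% and 0%, against 6.38% and 6.02%). An unadjusted p under 0.05 was reached by 4 higher (2.31% of all tested genes), and DESeq2 called Cox6a2. The median was 0.26, and it was 0.13 without KO library 1, 0.11 without WT library 3 and 0.44 without WT library 2. Beside Cox6a2, Ndufa4 was read at 197, 163 and 139 CPM in KO, against 101, 125 and 72.5 CPM in WT (0.74 ± 0.29; edgeR, adjusted p = 0.797). Ndufv1, of complex I, was read at 30.3, 34.0 and 26.3 CPM in KO, against 16.5, 16.3 and 19.9 CPM in WT (0.78 ± 0.33; adjusted p = 0.812). With offsets for transcript length and GC content the median was 0.06. Over tested genes, Spearman's correlation of the relative level with transcript length was −0.195, −0.150 and 0.0116 in KO libraries, against 0.118, −0.0677 and 0.223 in WT libraries, and its part in the result was not tested beyond the offsets. The 51 tested cytosolic ribosomal protein genes had a median of 0.25, of 0.03 with the offsets and of 0.08 without WT library 3. Of these, 2 lay apart higher (3.92%) and 0 lower, and at an unadjusted p under 0.05 there were 0 higher and 1 lower (2.31% and 3.46% of all tested genes). Of 32 tested mTOR pathway genes 4 lay apart higher and 1 lower (12.5% and 3.12%). Lamtor4, a subunit of the Ragulator scaffold, was read at 44.8, 45.3 and 44.5 CPM in KO, against 25.8, 39.0 and 23.01 CPM in WT (0.62 ± 0.32; edgeR, adjusted p = 0.851). Rragc, a Rag GTPase gene, was read at 102, 64.9 and 45.7 CPM in KO, against 117, 126 and 114 CPM in WT (−0.75 ± 0.32; adjusted p = 0.812), and the median was 0.04.

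In sugar metabolism, Slc2a6, a hexose transporter gene, was read at 49.8, 49.0 and 44.6 CPM in KO, against 18.0, 20.9 and 21.6 CPM in WT. The libraries were tight in both groups (1.24 ± 0.30; edgeR, adjusted p = 0.499; DESeq2, adjusted p = 0.0547). Of 28 tested glycolysis and hypoxia genes 71.4% had positive differences (49.7% of all tested genes did), 5 lay apart higher and 2 lower (17.9% and 7.14%, against 6.38% and 6.02% of all tested genes), and the median was 0.18. Their summed level was 890, 843 and 922 CPM in KO, against 745, 727 and 759 CPM in WT, so that the groups did not overlap. Of 32 tested genes for cholesterol and fatty acid synthesis 3 lay apart higher and 2 lower (9.38% and 6.25%), with a median of 0.22. Abca1 belonged to the second list and was its lowest member.

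Cell cycle and kinesin genes had medians of opposite sign. Of 51 tested cell cycle genes 33 had positive differences (64.7%, against 49.7% of all tested genes). Of the 51, 6 lay apart higher and 0 lower (11.8% and 0%, against 6.38% and 6.02%). An unadjusted p under 0.05 was reached by 3 higher (2.31% of all tested genes), and 0 passed in edgeR or DESeq2. The median was 0.36, and 0.16 without KO library 2. Ccnd1, which encodes cyclin D1, was read at 2767, 3812 and 4473 CPM in KO, against 2653, 1693 and 2227 CPM in WT (0.75 ± 0.30; edgeR, adjusted p = 0.799). Rrm2, a subunit of ribonucleotide reductase, was read at 5.58, 9.37 and 5.81 CPM in KO, against 0.761, 1.52 and 1.42 CPM in WT (2.47 ± 0.80; adjusted p = 0.698), and passed over all 15 libraries (adjusted p = 0.0249). Of 26 tested kinesin genes 19 had negative differences, 1 lay apart higher and 4 lower (3.85% and 15.4%, against the same 6.38% and 6.02%), with a median of −0.29, and of −0.04 without WT library 3. Beside Kif1a, Kif20b was read at 20.1, 24.1 and 26.5 CPM in KO, against 32.4, 45.6 and 40.5 CPM in WT (−0.74 ± 0.32), and Kif2a at 48.9, 54.8 and 32.3 CPM in KO, against 56.3, 80.9 and 87.0 CPM in WT (−0.72 ± 0.32; edgeR, adjusted p = 0.812 and 0.822).

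**Figure D4:**
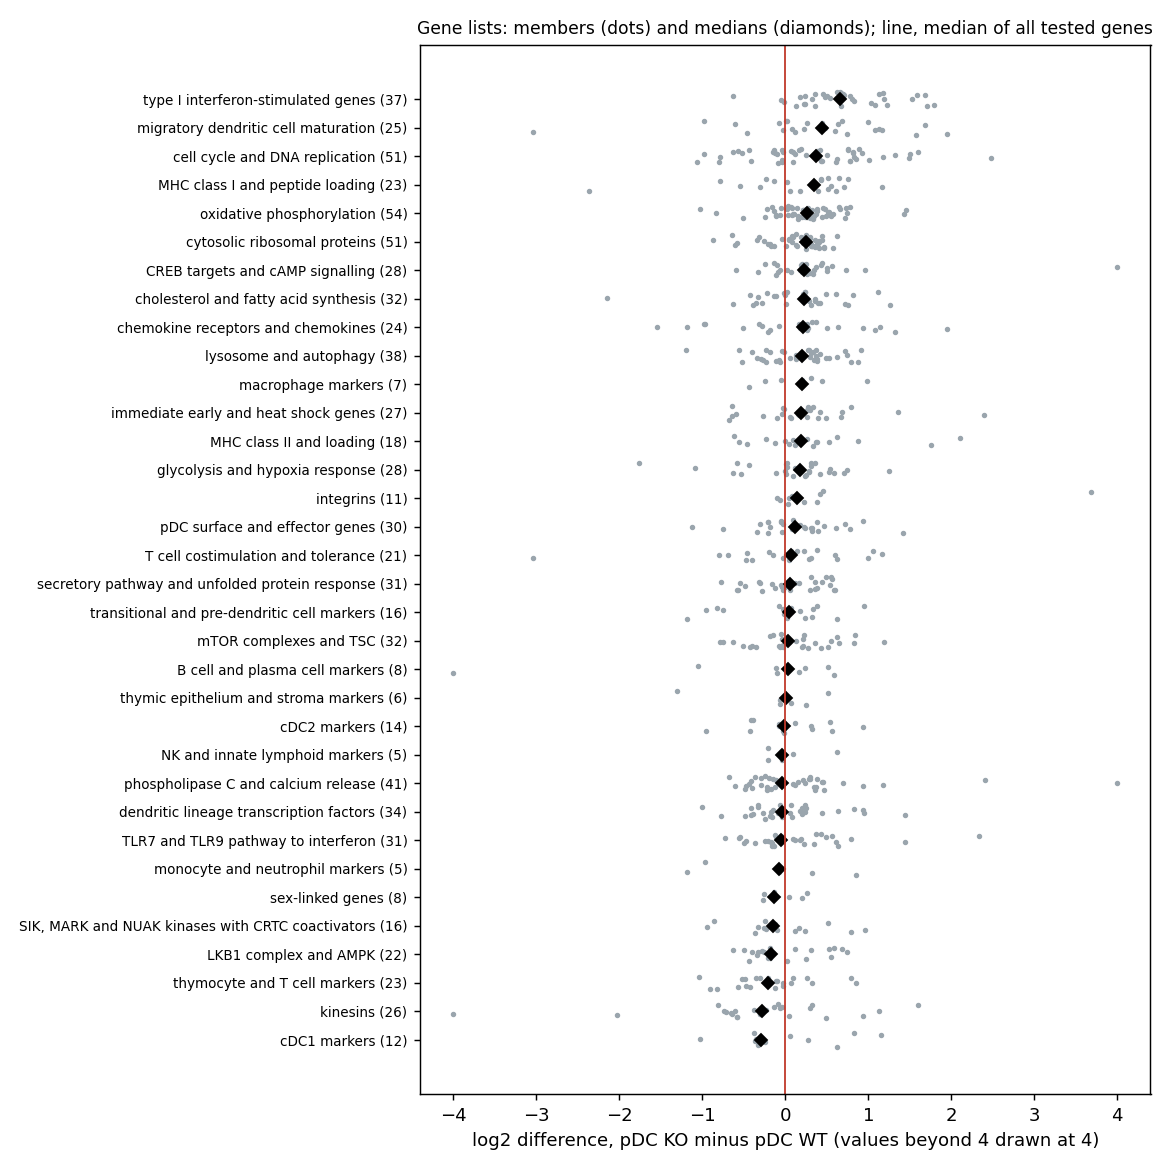
Differences (log2, pDC KO minus WT) of the tested members of each gene list (dots, number in parentheses) with the list median (diamond), where the red line marks the median of all tested genes. Medians run from −0.29 (cDC1 markers) to 0.66 (type I interferon-stimulated genes), and the erythroid and melanoma lists, with 2 and 1 tested members, are not drawn.

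The spread between libraries was as large as most group differences. On the log2(CPM + 1) scale the SD within a group had a median of 0.406 in KO and 0.424 in WT over the 10167 tested genes, while the absolute difference of the group means had a median of 0.308. For 2516 genes the difference of means exceeded both SDs. Across genes, Pearson's r between libraries ran from 0.911 to 0.941 within KO, from 0.923 to 0.945 within WT and from 0.920 to 0.940 between KO and WT. The first 2 principal components held 26.1% and 23.3% of the variance, and neither alone set KO apart from WT. The first ran from KO library 1 (−44.0) to KO library 3 (33.1), and the second from WT library 3 (−49.4) to KO library 1 (24.7). No 2 libraries agreed within sampling noise: chi-square divided by its degrees of freedom was 39.3 or more for each pair. At equal depth 10932 to 11330 genes were detected per library, and mitochondrial transcripts took 3.01% to 4.97% of counts.

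Several genes of dendritic cell maturation varied widely among the KO libraries. Ccr7, the chemokine receptor of migrating dendritic cells, was read at 266, 205 and 16.4 CPM in KO, against 31.5, 40.2 and 54.1 CPM in WT. KO libraries 1 and 2 were above and KO library 3 below every WT library. With all 6 libraries the difference was 1.95 ± 0.84 (edgeR, adjusted p = 0.851), and without KO library 3 Ccr7 passed the threshold at 2.48 (adjusted p = 0.0111). Cd83, a surface marker of mature dendritic cells, was read at 47.6, 11.5 and 4.96 CPM in KO, against 4.70, 3.29 and 10.9 CPM in WT (1.76 ± 0.73). The class II gene H2-Eb2 was read at 26.7, 9.24 and 4.96 CPM in KO, against 1.90, 3.80 and 3.82 CPM in WT (2.10 ± 0.65), and the chemokine gene Cxcl16 at 31.3, 18.7 and 9.40 CPM in KO, against 10.03, 3.92 and 9.82 CPM in WT (1.32 ± 0.51). In these genes KO library 1 was the highest and KO library 3 the lowest of the KO libraries.

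Id2, the antagonist of Tcf4 that favours conventional dendritic cells, kept the same order, at 426, 331 and 159 CPM in KO, against 126, 158 and 192 CPM in WT (0.94 ± 0.35; edgeR, adjusted p = 0.753). Ccr9, the chemokine receptor of thymus-homing and steady-state pDC, ran the other way, at 4804, 4150 and 9144 CPM in KO, against 4225, 3907 and 12481 CPM in WT (−0.19 ± 0.45), highest in library 3 of both groups. The 25 tested maturation genes had a median of 0.44, with 3 apart higher and 3 lower (12.0% each, against 6.38% and 6.02% of all tested genes), and of 0.16 without KO library 1, 0.75 without KO library 3 and 0.76 without WT library 3. Their summed level was 2505, 2523 and 1227 CPM in KO, against 1481, 1735 and 2268 CPM in WT. Cd86, the costimulatory ligand of CD28, was read at 31.9, 17.4 and 22.7 CPM in KO, against 8.38, 8.23 and 15.4 CPM in WT (1.17 ± 0.41; adjusted p = 0.734). Cd200, an inhibitory ligand gene, was read at 76.9, 77.9 and 78.3 CPM in KO, against 40.4, 60.9 and 52.5 CPM in WT (0.60 ± 0.29). In both genes every KO library was above every WT library.

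**Figure D5:**
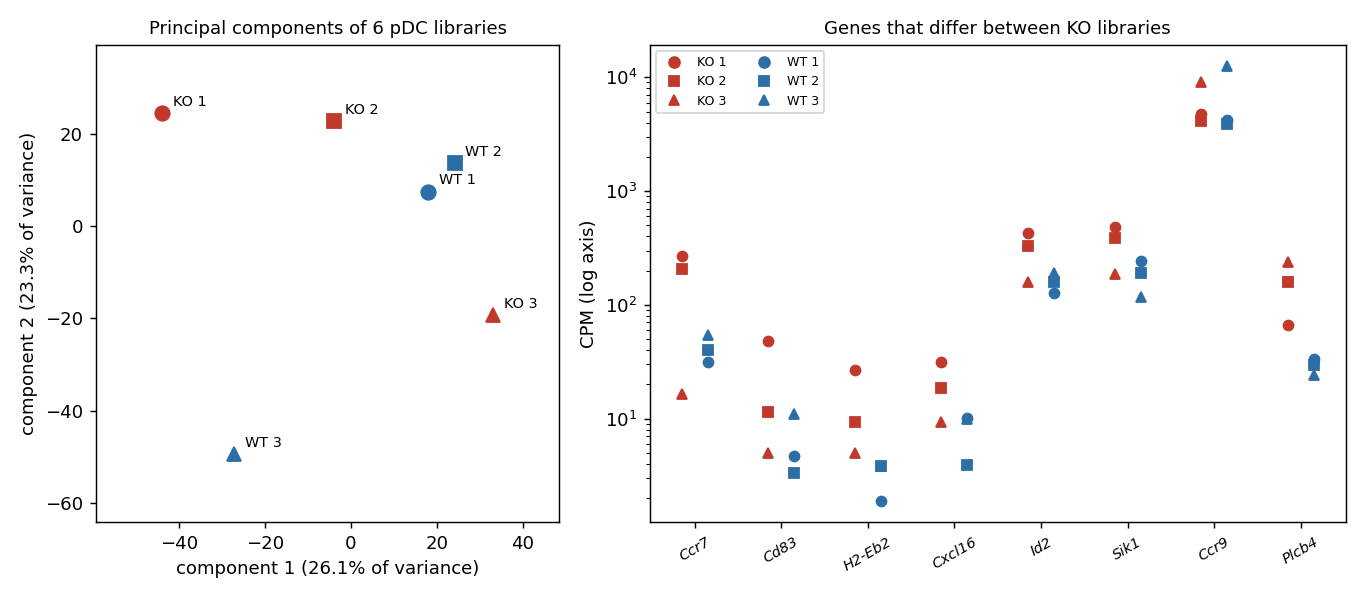
Left, the first 2 principal components of the 6 pDC libraries (26.1% and 23.3% of variance). Right, levels (CPM, log axis) of 8 genes in each library, picked after their values were seen, with KO in red and WT in blue: Ccr7 spans 16.4 to 266 CPM within KO.

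Of the markers of other cells, several defining ones were at 0 in all 6 libraries and others were read at appreciable levels. Cd79a (B cells), Ncr1 and Klrb1c (NK cells), Cd5l and Marco (macrophages), Klf1 (erythroid cells) and Pmel, Mlana and Tyr (melanoma) had no count. Summed levels ran from 1072 to 1216 CPM in KO and from 484 to 1405 CPM in WT for 19 cDC1 markers, and from 2662 to 3660 CPM in KO and from 2777 to 5158 CPM in WT for 20 cDC2 markers, whose sort used CD11b. The cDC2 list had 2 of 14 tested members apart higher and 2 lower (14.3% each, against 6.38% and 6.02% of all tested genes). Its median was −0.02, and Itgam is not in it. Macrophage markers summed to 204 to 212 CPM in KO and 142 to 189 CPM in WT, and 27 thymocyte and T cell markers to 633 to 691 CPM in KO and 815 to 1004 CPM in WT. In both lists the groups did not overlap, the T cell median was −0.21 over 23 tested genes, and the part of such cells in any other result was not tested. B cell markers summed to 452 to 487 CPM in KO and 367 to 447 CPM in WT, and thymic epithelium and stroma markers to 503 to 528 CPM in KO and 464 to 490 CPM in WT, likewise without overlap. Overlapping sums were those of NK and innate lymphoid markers (529 to 635 CPM in KO, 573 to 704 CPM in WT), of monocyte and neutrophil markers (870 to 1133 CPM in KO, 771 to 1430 CPM in WT), of erythroid markers (192 to 252 CPM in KO, 152 to 259 CPM in WT) and of melanoma markers (3.08 to 10.3 CPM in KO, 9.49 to 20.0 CPM in WT). Much of the monocyte sum was Ly6c2, which is also in the pDC list, and Ccr2, which exceeded Ly6c2 in every WT library. Scaled over all 15 libraries, Ccr2 was read at 206, 396 and 410 CPM in KO, against 708, 846 and 425 CPM in WT. Much of the erythroid sum was Tfrc, the transferrin receptor gene. Most of the B cell sum was Spib, itself a pDC marker, and Mzb1, and much of the stroma sum was Cdh1 and Cdh5. Cd68 made up much of the macrophage sum, and Il7r and Klrd1 much of the NK and innate lymphoid sum. Such sums thus do not count cells of the named types.

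The KO effects were set beside those of cDC1 (2 KO, 2 WT) and cDC2 (3 KO, 2 WT) in 1 fit over all 15 libraries. Of its 11746 genes, 0 had a KO effect in pDC that differed from that in cDC1 and 0 from that in cDC2 at an adjusted p under 0.05 (edgeR, lowest adjusted p = 0.110 and 0.139), with 970 (8.26%) and 988 (8.41%) at an unadjusted p under 0.05 and with 91 (0.775%) and 33 (0.281%) called by DESeq2. Plcb1 was read at 6.67 and 6.27 CPM in cDC1 KO, against 0 and 0 CPM in cDC1 WT, and at 74.2, 66.5 and 54.3 CPM in cDC2 KO, against 0 and 1.36 CPM in cDC2 WT. Its presence in KO and near absence in WT was thus seen in all 3 subsets, at the lowest KO level in cDC1. Itgam differed by 3.68 in pDC, 3.43 ± 0.57 in cDC1 and 1.03 ± 0.39 in cDC2, where WT libraries already held 102 and 105 CPM. The pDC effect minus the cDC2 effect was 2.65 ± 0.52 (edgeR, adjusted p = 0.139).

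Cox6a2 differed by 5.94 ± 0.71 in cDC1 and 2.20 ± 0.50 in cDC2, above the 1.43 of pDC. In pDC WT it stood at 261 CPM or more, against 8.98 CPM or less in each cDC1 WT and cDC2 WT library. The pDC effect minus the cDC1 effect was −4.51 ± 0.82 (edgeR, adjusted p = 0.110). Nrd1 differed by 0.68 ± 0.37 in cDC1 and −0.71 ± 0.33 in cDC2, and its pDC effect minus its cDC1 effect was −2.21 ± 0.48 (adjusted p = 0.112). Irf7 differed by 0.02 ± 0.34 in cDC1 and 1.08 ± 0.32 in cDC2. For none of these genes did the edgeR test show that pDC differed from another subset. Whether they were among the 91 and 33 genes that DESeq2 called is not reported here.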

How the data were processed

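The authors deposited raw counts, with a column for each library and no normalization; all values tested were whole. Per the submitters' processing notes, STAR, HTSeq, DESeq2 and mm10 were used; which tool did what, and in which version, is not given in the sources used here. Libraries were strand-specific 3′ tags amplified by 12 cycles of PCR, per the labels' protocols. Of 22165 genes 21745 matched a symbol in GENCODE M21 (GRCm38), which gave coordinates, and 8757 had no count in the 6 pDC libraries.

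These 6 libraries were fitted with edgeR 4.0.16 in R 4.3.3: filterByExpr by group (10167 genes kept, 0.137% of counts left out), TMM scaling within the 6 (factors 0.874 to 1.07), a robust quasi-likelihood fit with 1 coefficient per group (common biological coefficient of variation 0.427), two-sided tests and Benjamini-Hochberg adjustment over all tested genes at 0.05. Differences between subsets came from the same kind of fit over 15 libraries and 11746 genes. The fit was tested on simulated data. DESeq2 1.42.0, limma 3.58.1 voom, RLE scaling, no filter, a strict filter (10 CPM in 3 libraries), no robust estimation, a threshold of 0.1, a replicate block, length and GC offsets, and leaving out each library were the alternatives. An exact permutation test of 3 against 3 cannot go below p = 0.1 and was not used. Where a group had no count, its total was set to 3 to give a lower bound of the fold.

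Named genes were those past the threshold, 24 set genes, up to 4 tested members with the smallest p of each of 36 lists (982 symbols, 779 tested), and up to 12 per direction called by DESeq2 alone with groups apart. Some of them are not reported here. Genes of the other lists named at 0 are markers. The comparison, lists and genes were chosen with earlier results of these data known, so lists carry no test. Promoter windows (250 bases) came from RefSeq (GRCm38.p6). No sample was dropped.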

Additional observations from a re-analysis of the deposited data

How the results depend on the processing

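The 2 calls in pDC, Plcb1 and Itgam, were kept in every setting. The count of genes past the threshold was 28 without a filter (14 higher, 14 lower), 35 with DESeq2 (14 and 21), 9 with limma voom and sample quality weights (5 and 4) and 8 over all 15 libraries (7 and 1), and 2 with RLE scaling, the strict filter, no robust estimation, a threshold of 0.1 and the length and GC offsets. Leaving out 1 library gave 2 to 5: Plcb4 was added without KO library 1, Ccr7 without KO library 3, Cadm1 without WT library 1, and Adgrg5, Flrt3 and mt-Nd6 without WT library 3. Deviations from the group means had r = −0.069, 0.063 and −0.019 between same-numbered libraries of KO and WT. Over all pairs of a KO and a WT library r ran from −0.12 to 0.12. Values this small cannot tell whether the numbers pair the libraries, and the labels give no pairing. A fit with the replicate number as a block called the same 2 genes. For the difference from cDC1, 0 genes became 118 without a filter and 91 with DESeq2, and 0 to 2 with 1 library left out; for the difference from cDC2, 88, 33 and 0 to 1. A replicate block left both at 0. The cause of these moves was not tested. Depth limits the genes under a few CPM, where 1 library can decide the difference.

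Differences that were small against their error changed sign in some settings. With limma voom the difference was 0.14 for Siglech, 0.032 for Irf8, 0.028 for Ccr9 and −0.018 for Tfrc, and with the length and GC offsets it was −0.18 for Ly6d and 0.13 for Tcf4. With 1 library left out it ran from −0.22 to 0.20 for Siglech, −0.029 to 0.43 for Ly6d, −0.19 to 0.061 for Irf8, −0.20 to 0.13 for Tlr9, −0.62 to 0.56 for Ccr9 and −0.16 to 0.34 for Tfrc. None of these genes passed the threshold in any setting.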
